A study of Mus musculus with 2 samples.

Results

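The genes described here encode the core proteins of the brain extracellular matrix and its perineuronal nets: the chondroitin sulfate proteoglycans aggrecan (Acan), brevican (Bcan), neurocan (Ncan) and versican (Vcan), the hyaluronan and proteoglycan link proteins Hapln1, Hapln2, Hapln3 and Hapln4, the cross-linking glycoprotein tenascin-R (Tnr) and the receptor phosphatase Ptprz1. They were taken by symbol from the GENCODE M21 annotation of mouse assembly mm10, and make up 10 of its 21938 protein-coding genes. The 4 proteoglycans of the lectican family and the 4 link proteins bind hyaluronan, a long sugar chain that cells spin out at their surface, and link proteins lock each lectican onto that chain. Tenascin-R joins lecticans to each other, and the resulting mesh is densest around parvalbumin interneurons of the cortex, where it matures after birth and is known for limiting plasticity. In rodents the lecticans of the immature matrix, neurocan and versican among them, precede the aggrecan- and brevican-rich adult matrix.

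DNase-seq, which maps open chromatin from the ends that DNase I leaves where it can reach the DNA, was run on 2 libraries of frontal cortex from female B6CASTF1/J mice aged 10 days. B6CASTF1/J animals are F1 hybrids with a B6 and a CAST parent, so 1 of the 2 alleles at each locus differs in strain from the mm10 sequence, and its effect on these values was not tested. The libraries are labelled biological replicates 1 and 2 of a single group, no condition was compared, and both carry the same donor record. Nothing else in the labels says whether they came from separate animals, so the spread between them may be technical. What the mark 3x in the labels stands for was not stated.

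Replicate 1 held 104654 peaks and 293484 footprints, and replicate 2 held 81654 peaks and 187137 footprints. A peak is a stretch of dense cutting, with the authors' signal value in arbitrary units, and a footprint is a short stretch protected from cutting. The scaling of the signal is not stated and the depth is unknown. Promoters of the excitatory neuron markers were open in 7 and 6 of 7 genes in replicates 1 and 2, of the inhibitory neuron markers in 5 and 5 of 6, of the astrocyte markers in 6 and 4 of 6, of the oligodendrocyte precursor markers in 3 and 3 of 4, of the vessel markers in 3 and 1 of 3, and of myelinating oligodendrocyte and microglia markers in 1 of 4 each in both. Lhx6 and Sox10 were the closed genes of the inhibitory neuron and precursor lists, and none of 4 markers of other organs was open. Over all protein-coding genes, 66.1% of promoters were open in replicate 1 and 63.3% in replicate 2. In bulk tissue, fewer cells of a type and less open chromatin per cell cannot be told apart.

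The sequences that carry most of the findings below are the strongest distal open site of each locus that was found in both libraries. A distal site is a peak whose centre lies over 1000 bp from every annotated start site, and a locus is the gene body with 20 kb on each side. They are written on the + strand of mm10, and capitals mark bases under a footprint in both libraries.
Acan intron, chr7:79080881-79081040: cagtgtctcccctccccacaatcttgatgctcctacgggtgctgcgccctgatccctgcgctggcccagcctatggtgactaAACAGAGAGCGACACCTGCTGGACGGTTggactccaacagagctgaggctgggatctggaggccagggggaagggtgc
Bcan 3′ side, chr3:87987021-87987200: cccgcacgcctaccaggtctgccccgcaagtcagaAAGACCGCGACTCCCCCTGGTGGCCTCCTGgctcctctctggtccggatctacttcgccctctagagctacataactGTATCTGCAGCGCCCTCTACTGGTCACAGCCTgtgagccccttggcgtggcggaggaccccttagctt
Ncan upstream, chr8:70129381-70129620: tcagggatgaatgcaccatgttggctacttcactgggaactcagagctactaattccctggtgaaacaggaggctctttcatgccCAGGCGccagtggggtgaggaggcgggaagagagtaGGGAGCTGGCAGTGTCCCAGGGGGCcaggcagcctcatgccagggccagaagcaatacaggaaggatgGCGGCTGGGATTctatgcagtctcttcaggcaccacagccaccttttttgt
Hapln1 intron, chr13:89548301-89548500: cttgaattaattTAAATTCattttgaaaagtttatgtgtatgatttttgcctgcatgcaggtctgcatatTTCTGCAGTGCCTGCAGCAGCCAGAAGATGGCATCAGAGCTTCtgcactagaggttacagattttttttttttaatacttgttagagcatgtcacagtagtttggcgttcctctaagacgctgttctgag
Hapln3 upstream, chr7:79140961-79141140: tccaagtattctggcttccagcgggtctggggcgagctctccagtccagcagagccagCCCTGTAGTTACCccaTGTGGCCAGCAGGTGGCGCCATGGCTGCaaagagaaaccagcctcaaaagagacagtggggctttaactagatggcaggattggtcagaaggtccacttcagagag
Hapln4 intron, chr8:70087921-70088120: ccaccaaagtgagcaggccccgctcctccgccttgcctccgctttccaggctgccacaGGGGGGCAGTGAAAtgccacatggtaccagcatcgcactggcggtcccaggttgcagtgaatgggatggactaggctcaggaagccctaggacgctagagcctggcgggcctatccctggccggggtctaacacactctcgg
Tnr intron, chr1:159670841-159671120: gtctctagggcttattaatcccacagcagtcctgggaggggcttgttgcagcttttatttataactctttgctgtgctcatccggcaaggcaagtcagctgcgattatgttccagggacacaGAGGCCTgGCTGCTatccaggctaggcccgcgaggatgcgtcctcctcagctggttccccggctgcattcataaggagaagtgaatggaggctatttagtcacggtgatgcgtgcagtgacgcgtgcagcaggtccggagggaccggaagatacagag
Vcan, Hapln2 and Ptprz1 had no distal peak in both libraries.

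Promoter sequences are shown for Ncan, the strongest promoter, and for Tnr and Ptprz1, where listed motif letters lay at least partly under footprints. They are also shown for Acan, the signature gene of the nets, where no base was under a footprint in both libraries. They come from RefSeq (GRCm38.p6), run 5′ to 3′ on the strand of the gene and end at the base before the RefSeq start, with bases inside an annotated transcript left out for Ncan. Capitals again mark bases under a footprint in both libraries.
Ncan, chr8:70120874-70121094, − strand: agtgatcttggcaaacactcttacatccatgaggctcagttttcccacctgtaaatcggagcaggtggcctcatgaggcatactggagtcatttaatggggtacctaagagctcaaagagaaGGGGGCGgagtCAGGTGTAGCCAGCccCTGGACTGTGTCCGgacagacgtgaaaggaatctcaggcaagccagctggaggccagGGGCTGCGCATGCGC
Tnr, chr1:159523519-159523768, + strand: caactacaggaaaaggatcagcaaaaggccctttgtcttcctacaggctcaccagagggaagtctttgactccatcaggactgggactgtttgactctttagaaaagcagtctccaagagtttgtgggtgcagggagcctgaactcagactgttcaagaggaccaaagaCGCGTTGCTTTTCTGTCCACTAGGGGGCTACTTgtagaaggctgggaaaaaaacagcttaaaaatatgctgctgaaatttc
Ptprz1, chr6:22875252-22875501, + strand: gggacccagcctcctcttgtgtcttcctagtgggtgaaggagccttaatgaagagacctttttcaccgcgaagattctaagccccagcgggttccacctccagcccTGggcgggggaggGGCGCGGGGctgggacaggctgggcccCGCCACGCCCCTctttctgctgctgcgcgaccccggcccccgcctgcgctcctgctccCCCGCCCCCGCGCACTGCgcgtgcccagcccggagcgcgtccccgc
Acan, chr7:79052976-79053225, + strand: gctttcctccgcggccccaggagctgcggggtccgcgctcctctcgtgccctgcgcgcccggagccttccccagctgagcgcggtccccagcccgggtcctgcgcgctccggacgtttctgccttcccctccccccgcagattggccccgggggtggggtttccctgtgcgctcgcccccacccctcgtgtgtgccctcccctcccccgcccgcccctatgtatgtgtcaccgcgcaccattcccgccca
The Acan window lies upstream of the GENCODE start at 79053483, because the RefSeq start does.

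Promoters counted as open when any of the gene's start sites had a peak no further than 500 bp away. By this rule 10 of 10 genes were open in replicate 1 and 8 of 10 in replicate 2, beside 66.1% and 63.3% of all protein-coding genes. The 8 open in both stand beside 62.8% of all genes. The promoters were weak for open ones: their median signal was 1.33 in replicate 1 and 1.83 in replicate 2, against 3.13 and 3.73 over the open promoters of all genes. Counting closed promoters as 0, the medians were 1.33 and 1.39 for the 10 genes and 1.38 and 1.56 for all genes.

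Among the lecticans, Ncan, the neurocan of the young brain, had the strongest promoter of the 10, at 3.69 signal units in replicate 1 and 5.57 in replicate 2. It exceeded 71.5% and 80.7% of all genes. Vcan, which encodes versican, had 1.93 and 2.42. Those values belong to an internal coding start at 89740397, while the peak at the annotated start of Vcan had 0.875 and 1.04. Bcan, which encodes brevican, had 1.54 and 1.93 at its annotated start. Acan, the defining proteoglycan of mature nets, had only 0.427 and 0.519, above 36.5% and 38.5% of all genes. Ncan exceeded Acan in both libraries, and Vcan and Bcan lay between them in both.

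By the strongest start of each gene, the link protein promoters lay below those of Ncan, Vcan and Bcan in both libraries. At the annotated starts Hapln1 lay above Vcan, whose peak there had 0.875 and 1.04. Hapln1, which encodes the cartilage link protein also made by neurons, had a signal of 1.13 and 1.05. Hapln3, known mainly from tissues outside the brain, had 0.490 and 0.586. Hapln4, the brain link protein that partners brevican, had 0.609 in replicate 1 and no peak in replicate 2. Hapln2, a link protein of myelinated nodes of Ranvier, had 0.458 in replicate 1 and none in replicate 2. That Hapln2 peak lay at an internal non-coding start at 88023673, and neither library had a peak at the annotated start of Hapln2. A stronger Hapln2 site inside the gene, chr3:88022901-88023140, had 1.34 and 1.06 and lay just outside the 500 bp window. Nodes of Ranvier belong to myelinated axons, and 1 of 4 markers of myelinating oligodendrocytes was open in either library, the part of which in the Hapln2 values was not tested.

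Tnr, which encodes the cross-linker, had a promoter signal of 1.74 in both libraries. An internal coding start of Tnr at 159773770 had its own peak, with 0.922 in replicate 1 and 1.09 in replicate 2. Ptprz1, a receptor phosphatase of radial glia, astrocytes and oligodendrocyte precursors whose secreted form is the proteoglycan phosphacan, had 2.44 and 2.26. That peak lay over the annotated start and within 500 bp of the next group of Ptprz1 start sites, so both groups were given its value.

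Ordered by mean signal, the promoters ran Ncan, Ptprz1, Vcan, Tnr, Bcan, Hapln1, Hapln3, Acan, Hapln4 and Hapln2. The ranges of the 2 libraries overlapped between Ptprz1 and Vcan, between Tnr and Bcan, and between each neighbouring pair from Hapln3 to Hapln2, so the order within those sets lies within the spread. Ncan stood above Ptprz1, Vcan (by its internal start) above Tnr, Bcan above Hapln1 and Hapln1 above Hapln3 with no overlap. With 2 replicates of a single condition, no likeness of pattern between genes could be measured.

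**Figure D1:**
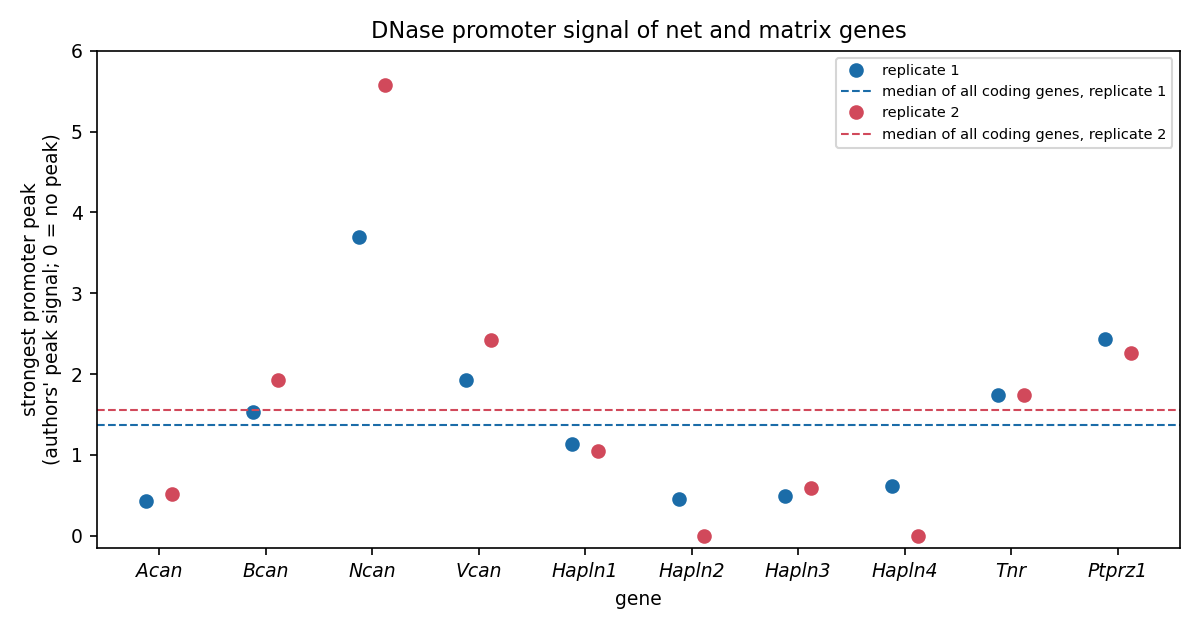
Promoter peak signal (arbitrary units, linear axis) of the 10 genes in replicate 1 and replicate 2, with the median of all protein-coding genes as lines. Ncan stands highest in both libraries with 3.69 and 5.57, and Hapln2 and Hapln4 are at 0 in replicate 2.

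CpG content gives a scale for these levels, since promoters rich in CpG are open in most tissues. All genes were divided into 5 equal groups by the observed/expected CpG ratio around the annotated start. Ncan had a ratio of 0.383 and Tnr 0.327, which put both in group 2, where 38.5% and 33.5% of promoters were open in replicates 1 and 2 and the median signal was 0 in both. Both genes were above the middle of that group, as was Hapln3 with a ratio of 0.366. Acan had a ratio of 0.637, in group 3, where 84.9% and 80.4% of genes were open with median signals of 1.72 and 1.96. Vcan, Hapln1 and Hapln4 were in the same group, with Hapln1 and Hapln4 below those medians in both libraries. Vcan was above them only by its internal start. At the annotated start, where the ratio was taken, its 0.875 and 1.04 were below them. Bcan and Ptprz1, with 0.794 and 0.671, fell in group 4, whose medians were 3.71 and 4.18. Acan, Bcan and Ptprz1 thus lay below the medians of their groups in both libraries. Hapln2 had the lowest ratio of the 10, with 0.178, also in group 2. Its 0.458 in replicate 1, at an internal start, and 0 in replicate 2 stand beside group medians of 0.

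The authors' cut-rate table lists bases whose local cut rate passed a limit on the false discovery rate (FDR), and gave a second view of the same promoters. Within 500 bp of the annotated start, the table listed 100% of bases in replicate 1 and 80.0% in replicate 2 for Ptprz1, with lowest FDRs of 4.66e-22 and 2.95e-14. The Vcan start had 80.7% and 64.4% of its bases listed, Tnr 73.1% and 69.9%, and Hapln1 54.0% and 66.8%. Ncan had a narrower listed stretch, 44.1% and 42.8%, with the lowest FDRs of the 10 genes, 1.55e-37 and 1.48e-27. Acan had 40.7% and 35.1% listed, but its lowest FDRs were only 0.000424 and 0.000600. Bcan was close to Acan by this measure, with 32.8% and 37.5% listed and lowest FDRs of 0.000178 and 0.000145, although its peak signal was higher. Hapln3 differed most between libraries, with 2.50% in replicate 1 and 36.1% in replicate 2. Hapln4 had 11.5% in replicate 1 and 0% in replicate 2, and Hapln2 had 0% in both. The peak calls of Hapln4 and Hapln2 and this table show the same absence in replicate 2. Both were made from the same libraries, so their likeness is not independent support. The replicate 1 peak of Hapln2 lay at an internal start, outside this window.

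Footprints in the promoter sequences fell on few of the motif letters searched. The search covered both strands for exact letters, and a match was assigned to a footprint that took in 50% or more of its bases. The last bases of the Ncan sequence are the palindromic core of NRF1, a factor of CpG-rich promoters. They lay under a footprint in both libraries, and 0.777% of 32817 RefSeq promoters of 250 bases hold them. That motif was added after the sequences had been seen. Tnr holds CTACTTGTAG, a match to the MEF2 motif that 3.20% of promoters hold. The stretch under a footprint in both libraries covers its letters CTACTT but not GTAG, and reaches well upstream of the match. CTCF letters with more than 1 mismatch were not searched in the promoters, so the footprint is not assigned to MEF2 letters alone. Ptprz1 holds the SP letters GGGCGGG under a footprint in both libraries, and 23.4% of promoters hold them. Acan holds GGGCGGG 3 times on the − strand, none under a footprint in either library. It also holds the E-box CAGCTG, under a footprint in replicate 1 alone, and 13.0% of promoters hold those letters. A match is a description of letters and not a bound factor.

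Each lectican gene is a chromosomal neighbour of a link protein gene, an arrangement conserved among vertebrates, and no protein-coding gene lies between the members of a pair. Acan (chr7:79053483-79115099, + strand) and Hapln3 (chr7:79115102-79131018, − strand) point at each other with 2 bp between them. Ncan (chr8:70093085-70120873, − strand) and Hapln4 (chr8:70083457-70090862, + strand) also converge, 2.22 kb apart. Vcan (chr13:89655312-89742509, − strand) and Hapln1 (chr13:89539796-89611652, + strand) converge 43.7 kb apart. Bcan (chr3:87987531-88000230, − strand) and Hapln2 (chr3:88021750-88027583, − strand) are in tandem, 21.5 kb apart. Tnr (chr1:159523769-159931729, + strand) and Ptprz1 (chr6:22875502-23052916, + strand) have no link gene beside them.

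Open sites in the space between the paired genes were few. Replicates 1 and 2 had 2 and 2 peaks between Bcan and Hapln2, 1 and 0 between Vcan and Hapln1, and none in the short gaps between Acan and Hapln3 and between Ncan and Hapln4. In each library, 1 of the 2 peaks between Bcan and Hapln2 was the Bcan promoter peak itself. The other was a different site in each library. Within the pairs, Ncan had the strongest promoter of the 10 beside Hapln4, which had none in replicate 2, and Acan and Hapln3 were both weak. Bcan had 1.54 and 1.93 beside 0.458 and 0 for Hapln2. Vcan had 1.93 and 2.42 at its internal start, and 0.875 and 1.04 at its annotated start, beside 1.13 and 1.05 for Hapln1.

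The loci together held 91 peaks in replicate 1 and 56 in replicate 2, of which 52 and 23 were distal. Distal density, in peaks per 100 kb, had a median over the 10 genes of 3.49 in replicate 1 and 2.21 in replicate 2, against 2.36 and 1.95 over all genes. At least 1 distal peak was present for 9 genes in each library, beside 73.3% and 67.4% of all genes. The exceptions were Hapln2 in replicate 1 and Ptprz1 in replicate 2.

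Lectican loci covered nearly the whole span of density. Bcan had 11 distal peaks in replicate 1 but 2 in replicate 2, or 20.9 and 3.80 per 100 kb. The Ncan locus had 10 and 5, or 14.8 and 7.38 per 100 kb, above 97.0% and 93.7% of all genes. Some of these lie inside the Hapln4 body and count for Hapln4 too, since the 2 loci hold 7 and 1 peaks in common. Another 3 in each library were intergenic, upstream of Ncan and closer to another start than to its own. Acan had 3 and 3, or 2.95 in both, and Vcan had 1 and 1, or 0.786 in both. These equal counts are not the same peaks: only 1 Acan distal peak was in both libraries, and the Vcan peaks were different sites. With its flanks, the Ncan locus was thus the densest of the 10 in replicate 2 and stood behind Bcan in replicate 1.

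Among the link protein loci, Hapln1 had 5.36 distal peaks per 100 kb in replicate 1 and 0.894 in replicate 2, and Hapln4 had 8.44 and 2.11. Hapln3 had 1.79 and 3.58, and Hapln2 had 0 and 2.18. Tnr, spread over 408 kb, had the most distal peaks, 18 and 10, though its density was moderate at 4.02 and 2.23. Ptprz1, at 177 kb, had 2 and 0.

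**Figure D2:**
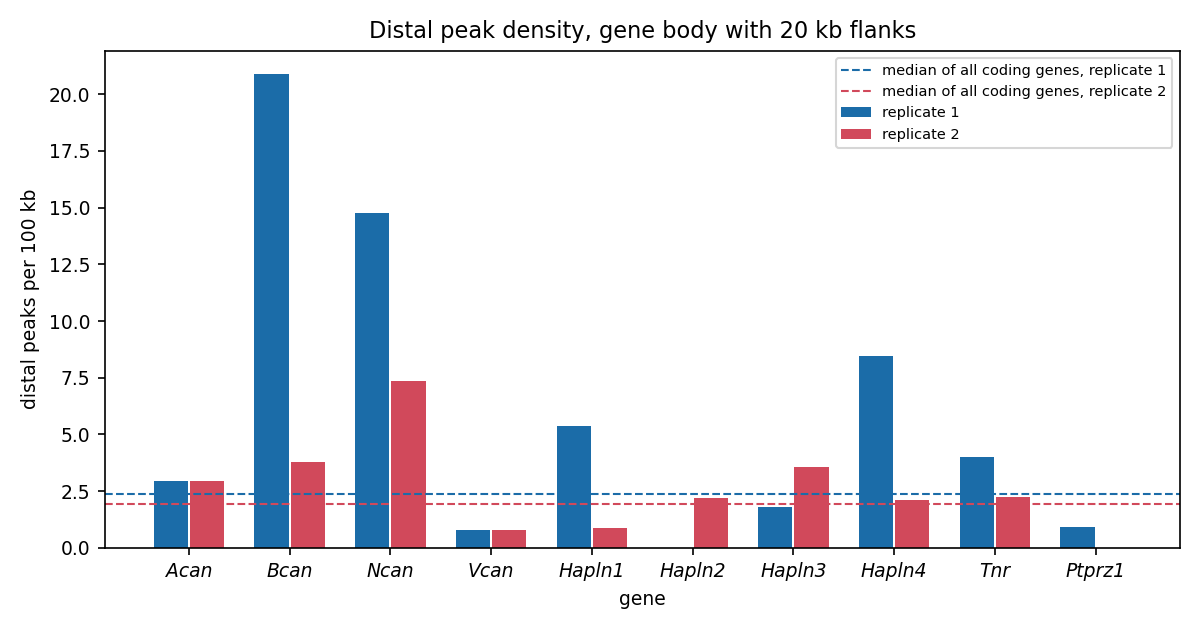
Distal peaks per 100 kb of gene body with 20 kb flanks for the 10 genes in replicate 1 and replicate 2, with medians of all protein-coding genes as dashed lines at 2.36 and 1.95. Bcan, Ncan, Hapln1 and Hapln4 show the widest gaps between libraries, replicate 1 being higher in each.

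Replicate 1 held runs of weak peaks inside Bcan and Hapln4 that replicate 2 did not. In the Bcan locus 13 of 17 replicate 1 peaks had no partner in replicate 2, with signals of 0.198 to 1.34 and a median of 0.333. A 50 kb window at Bcan held 12 such peaks, and windows with at least 10 made up 0.884% of all windows with a replicate 1 peak. The Ncan and Hapln4 loci reached 6 in such a window, the same 6 peaks of the Hapln4 body counted for both, and the other members 1 to 3. All 11 distal peaks over exons of these loci, in Bcan, Hapln4, Hapln1 and Tnr, were found in replicate 1 and none in replicate 2. Over the genome, 5.25% of replicate 1 peaks and 4.43% of replicate 2 peaks were of this exonic class. Replicate 1 had more peaks over the whole genome too, and the part of that difference in these runs was not tested.

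Over the loci, 46 peaks of replicate 1 overlapped a replicate 2 peak, 50.5% of its 91 against 64.8% of all replicate 1 peaks. In replicate 2, 46 of 56 were shared, or 82.1% against 82.9% of all. The median signal of shared peaks was 1.07 in replicate 1 and 1.31 in replicate 2, and that of unshared peaks was 0.427 and 0.665. Across the 40 peaks of the loci that paired 1 to 1, the median log2 ratio of replicate 1 over replicate 2 was -0.25, with an SD of 0.29. Over all 61026 such pairs the median was -0.25 and the SD 0.32. The largest departure from that median was the Hapln1 intron site, 1.00 in replicate 1 and 2.15 in replicate 2, whose departure was -0.85 on the log2 scale. The Hapln2 internal site, at 1.34 and 1.06, departed by 0.60 in the other direction.

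**Figure D3:**
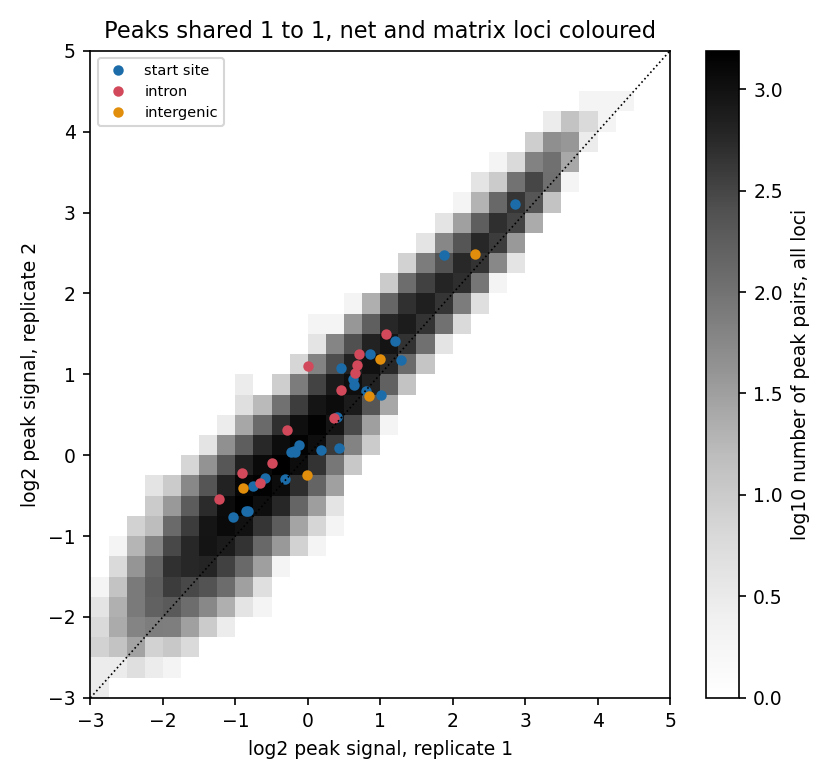
Log2 signal of peaks paired between the libraries, replicate 1 on the horizontal and replicate 2 on the vertical axis, with the 40 pairs of the loci as points coloured by class over a grey map of the log10 number of all 61026 pairs and a dotted line of equal signal. The points lie within the cloud of all pairs, and the Hapln1 intron site, with signals of 1.00 and 2.15, is at its upper edge.

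The strongest distal site of any of the loci was at Bcan. It lay just past the 3′ end of the gene, 13.1 kb from its start and in intergenic sequence, at 4.94 signal units in replicate 1 and 5.63 in replicate 2. It exceeded 99.7% and 99.4% of all distal peaks. Both libraries placed footprints over 62 of its 180 bases. Of these, a footprint of 34 bp in replicate 1 and 33 bp in replicate 2, wider than 97.3% and 96.2% of all footprints, covered the letters GCGCCCTCTACTGG. Those letters match the CTCF core on the − strand. CTCF is the zinc-finger protein that marks loop anchors and insulators in chromatin.

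Another exact match to the CTCF letters lay in the site at -10.0 kb from the Hapln3 start, which sits in an intron of its neighbour Mfge8. That site had a signal of 2.10 and 2.82, above 95.7% and 94.9% of distal peaks, and its match, CCAGCAGGTGGCGC, was under a footprint of 28 bp in replicate 1 and 30 bp in replicate 2. At the other end of the pair, the Acan intron site, 27.5 kb from the start, had 1.60 and 2.17, against 0.427 and 0.519 at the Acan promoter. It holds the same letters with at most 1 mismatch, GCGACACCTGCTGG, under a footprint of 28 bp in replicate 1 and 31 bp in replicate 2. The search with 1 mismatch was added after the sequences had been seen. In 200 bp windows on peak centres, exact CTCF letters were found in 2 of 91 and 2 of 56 peaks of the loci, 2.20% and 3.57%, against 3.18% and 3.69% of all peaks. With 1 mismatch the shares were 5.49% and 10.7%, against 17.0% and 18.7% of all peaks. Exact letters were thus not more frequent in the loci than elsewhere, and those with 1 mismatch were less frequent. They were still present in the strongest sites of 3 genes, exact at Bcan and Hapln3 and with 1 mismatch at Acan. No share over strong distal sites of the genome was computed beside those 3.

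The remaining strongest sites held footprints without a match to the CTCF letters, exact or with 1 mismatch. Looser matches were not searched, so likeness to other CTCF sites is not excluded. The Hapln1 intron site, 8.61 kb from the start, had a footprint of 45 bp in each library, wider than 99.3% and 99.2% of all footprints. No letters of the motif list were found in the Hapln1, Ncan or Hapln4 sites. At Ncan, 5 distal sites were in both libraries, the most after the 8 of Tnr, and the strongest lay at -8.63 kb from the Ncan start with 1.99 and 2.28, closer to the start of Nr2c2ap than to that of Ncan. The Hapln4 intron site, 4.56 kb from the start, had 1.58 and 2.03 and also falls in the Ncan locus, given the short distance between the genes. Hapln4 thus had an intronic site in both libraries although its promoter peak was missing in replicate 2. The strongest Tnr site lay 147 kb into the gene with 1.37 and 1.75, and only 13 of its 280 bases were under footprints in both libraries. Its CAGCTG E-box, TAATCC (OTX) and CCGGAAG (ETS) matches were outside footprints. These letters were found in 24.2%, 2.20% and 2.20% of 200 bp windows of the loci in replicate 1, against 18.6%, 4.05% and 3.59% of all peaks. In replicate 2 the shares were 17.9%, 1.79% and 1.79% in the loci, against 18.04%, 3.93% and 3.95% of all peaks.

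**Figure D4:**
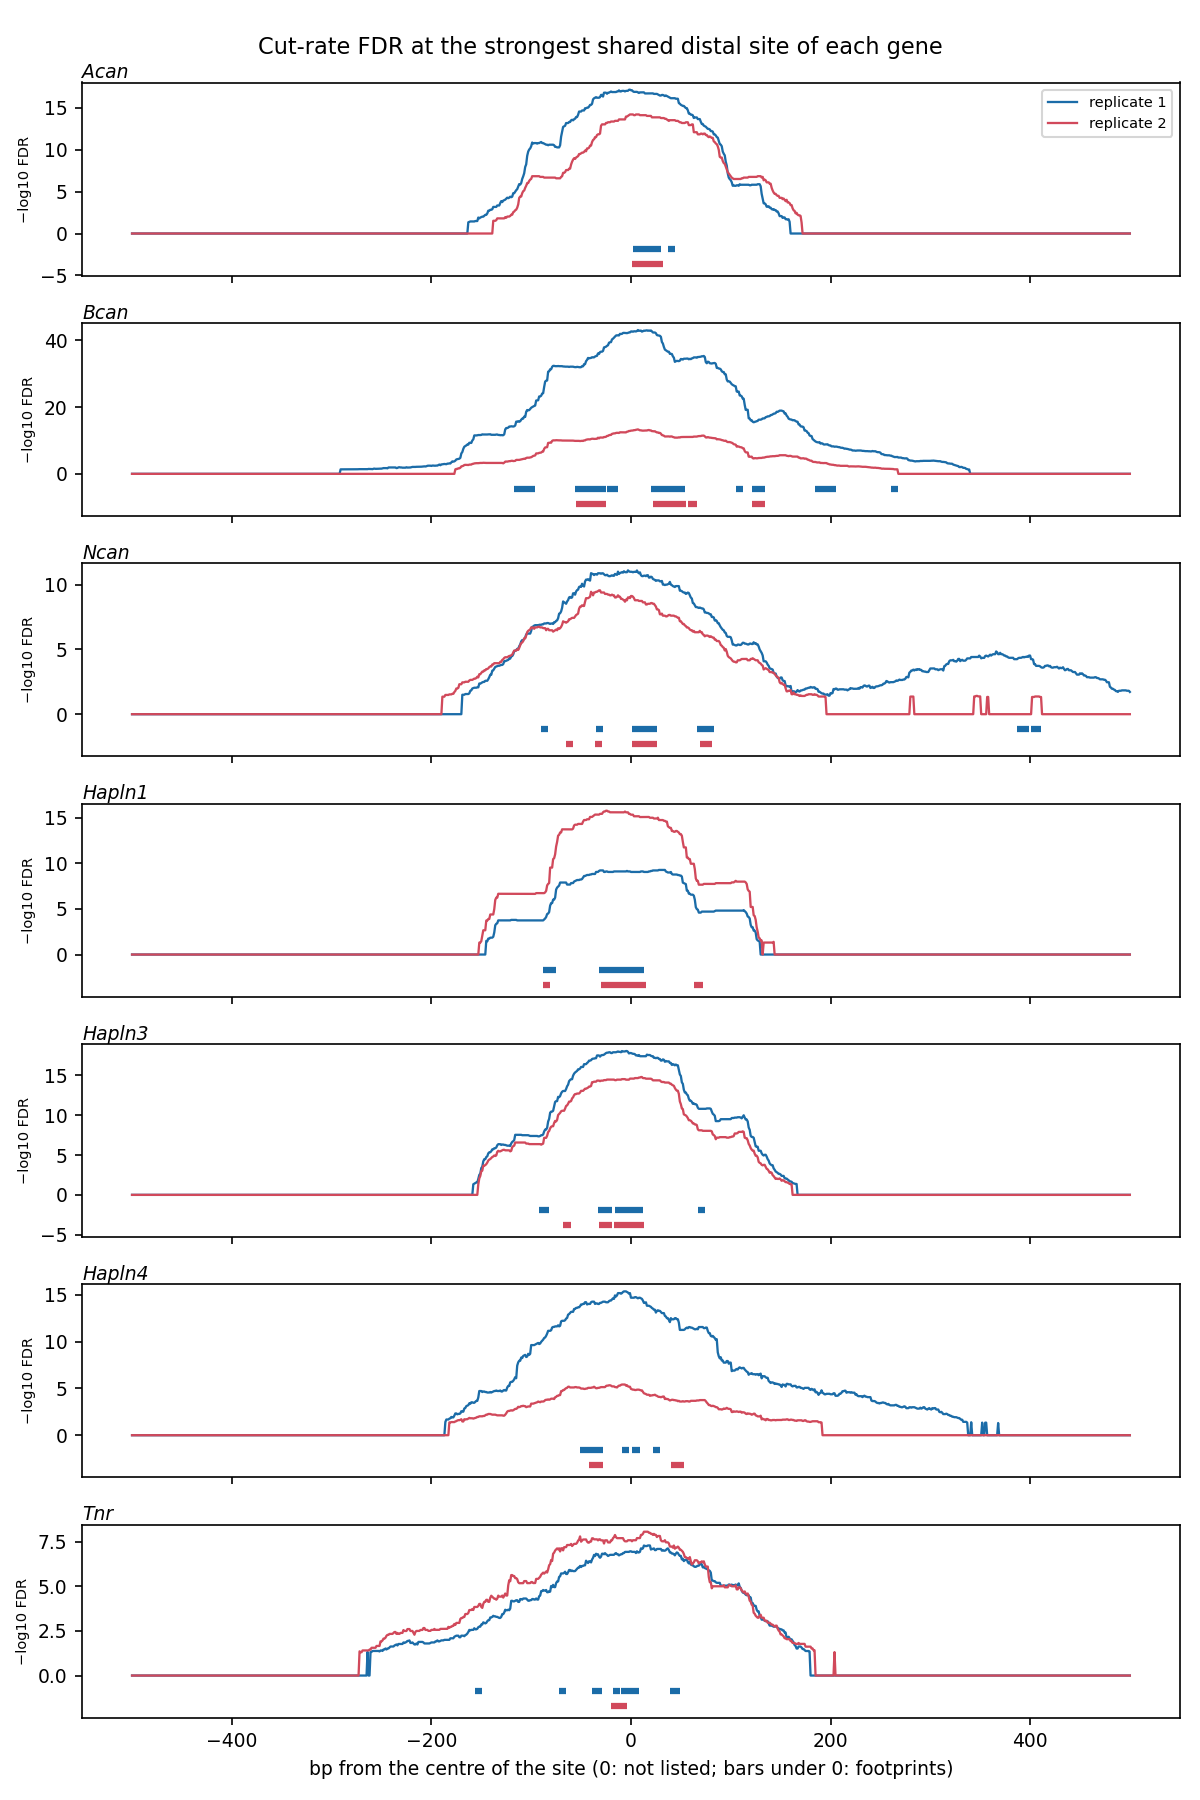
Negative log10 FDR of the cut rate around the strongest shared distal site of 7 genes, against distance in bp from the peak centre, for replicate 1 and replicate 2, with 0 for bases not listed and footprints as bars under 0. The Bcan site has the lowest FDR of the 7 in replicate 1, with 8.43e-44, but 4.85e-14 in replicate 2, where the lowest is 1.69e-16 at Hapln1.

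Vcan and Tnr are both long genes with different layouts. The Vcan peaks present in both libraries all lay in the first few kb of the gene, and the one at the start of the antisense gene Gm4117 had 1.38 in replicate 1 and 2.11 in replicate 2. Ptprz1 likewise had both of its shared peaks at its start. Tnr had 15 peaks in both libraries, spread from -5.88 kb to 299 kb relative to its start.

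Footprints in the loci numbered 238 in replicate 1 and 133 in replicate 2, and 83.2% and 96.2% of them lay in a called peak, against 85.5% and 87.8% of all footprints. Peaks with a footprint made up 84.6% and 82.1% of those in the loci, against 82.3% and 72% of all peaks. The footprints themselves were shared between libraries less than peaks were: 29.8% of those of replicate 1 and 57.1% of those of replicate 2 overlapped one of the other library, against 37.3% and 60.3% over all footprints. 

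Of 45 other genes of the net and its enzymes, 42 were open in replicate 1 and 38 in replicate 2, beside 66.1% and 63.3% of all protein-coding genes. The median promoter signals of the 45 were 1.51 and 1.76, against 1.38 and 1.56 over all genes, with closed promoters as 0. The enzymes that build and sulfate chondroitin chains stood highest, 16 of 17 open in each library with medians of 2.52 and 2.61. Chst12, a chondroitin 4-sulfotransferase, had 8.32 and 9.17, Chpf, a chain polymerising factor, had 7.89 and 8.37, and Chst13 was closed. Contact partners were open in 10 and 9 of 10, led by Ptprs, the neuronal receptor for chondroitin sulfate, with 8.00 and 9.06, followed by Nfasc, which encodes neurofascin, with 3.16 and 4.89, and Cntn1, which encodes contactin, with 3.05 and 4.996. Mdk, which encodes the growth factor midkine, was lowest by the mean of the libraries, with 1.02 in replicate 1 and none in replicate 2, although Cd44 had 0.432 and Sema3a 0.823 in replicate 1.

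Proteases and inhibitors that remodel the matrix were open in 11 and 9 of 12, with Timp2 at 3.15 and 2.98, Adamts1 at 1.93 and 1.97 and Mmp9 closed. Of the hyaluronan synthases, Has3 had 1.67 and 1.49, Has2 had 0.359 and 0.710 and Has1 was closed. Cspg5, a transmembrane proteoglycan, had 2.19 and 2.10, Tnc, the tenascin of the immature brain, had 1.45 and 2.00, and Cspg4, the NG2 proteoglycan of oligodendrocyte precursors, had 0.719 in replicate 1 and none in replicate 2. Of the neighbours in the flanks, the start shared by Rfxank, Borcs8 and Mef2b beside Ncan had 7.26 and 8.59, stronger than any promoter of the 10, and as a start site it is not part of the distal densities.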

How the data were processed

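The 2 DNase-seq libraries (frontal cortex, female B6CASTF1/J, 10 days) are labelled biological replicates of 1 group. Per the text files deposited with them, peaks, footprints and cut-rate tables were made per library from filtered alignments in mm10; aligner, callers, versions and thresholds were not stated there or in the labels. The deposited signal of a peak is the authors' value, taken as a cut density of unstated scaling, so the depth is unknown. The deposited false discovery rate, a p-value type of measure, is listed per base up to a limit of theirs. The value deposited with footprints was 0.01 in every row, so footprints were used as positions. The longer of the 2 peak lists of each library was used.

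From these files, promoter calls (any start site, 500 bp), distal peaks (over 1000 bp from every start), shares with an overlap of at least 1 bp, and motif matches were computed with Python 3.11.15, numpy 2.4.6 and pandas 2.3.3 on the GENCODE M21 annotation; RefSeq (GRCm38.p6) gave promoter sequences. No test was made, since no conditions were compared. Overlap code was tested on simulated data, with 0 differences over 800 intervals.

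Motif letters were searched on both strands. They were TTGGCA for a single arm of the NFI site, ACAATGG for SOX factors, TGANTCA for the AP-1 dimer, the E-box of neurogenic factors CAGATG, the E-box of myogenic type CAGCTG, the early growth response site GCGTGGGCG, the cyclic AMP response element TGACGTCA, the OTX site TAATCC, the homeobox core TAATTA, the octamer of POU factors ATGCAAAT, the ETS site CCGGAAG and the SP site GGGCGGG. The longer full NFI (which holds the start of its single arm), MEF2, CTCF, RFX and NRF1 motifs are given by name.

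The members, gene lists and motifs were chosen with earlier results of these data known. All 10 members were named, with the strongest distal peak shared by both libraries, the 2 highest and the lowest of the other net genes per role, and those closed in both. Alternatives were other peak lists (the shorter one, the strongest 50%, equal numbers), other windows, flanks and overlaps, and each library alone.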

Additional observations from a re-analysis of the deposited data

How the results depend on the processing

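The number of the 10 genes open in both libraries was 8. Of the 7 alternatives tried, those that used both libraries gave 6 to 9. With replicate 1 or replicate 2 left out, 8 and 10 genes were open in the remaining library alone. The share of peaks in the loci found in both libraries, 62.6% pooled over the libraries, lay between 49.0% and 81.0% under 6 alternatives. The median over the genes of their mean promoter signal, 1.41, was 1.47 with a window of 2000 bp and 1.02 at the annotated gene start alone, and 1.33 to 1.39 with either library left out. Median distal density, 2.85 per 100 kb, was 1.48 with the shorter peak list, 1.27 with the strongest 50% of peaks and 1.39 with peaks of both libraries only, and lay between 2.21 and 3.49 with a library left out. The distal count, 41 on average with a peak counted for every locus that holds it, was 20.5, 17.5 and 18 under the same 3 settings, 94 with 100 kb flanks, and 26 to 56 with a library left out. The share of peaks with a footprint, 83.7%, was 88.9% with the shorter list, 96.2% with the strongest 50% and 88.4% with equal peak numbers, and 82.1% to 84.6% with a library left out. The cause of these shifts was not tested. The density and count of distal peaks rest on how many weak peaks are kept, and depth is unknown. No paired analysis was possible because there is 1 group, whose replicates have no partner in another.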
